A study of Mus musculus with 16 samples.

Results

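The 10 genes described here act in the PIWI-interacting RNA (piRNA) pathway of male germ cells. They were taken by name from a fixed list of PIWI proteins, Tudor proteins and their partners. The list was set with earlier results of these data known, so shares of members beside shares of all genes are descriptive. All 10 had a row among the 24062 genes of the count table. RNA came from the sperm of male mice put on a diet when 3 weeks old and fed it for 9 weeks. There were 8 libraries after a high-fat, high-calorie diet (HFD, a modified D12492) and 8 after its control diet (CD), and the labels give no strain. Motile sperm were isolated in both groups, and 2 ng of total RNA per sample was amplified to cDNA. Each library was taken as 1 animal, from the series' count of 8 per diet. No label ties a library to its animal, so p-values measure the spread between these libraries.

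piRNAs are short RNAs carried by PIWI proteins, which use them to silence transposons and, at meiosis and after it, to regulate other germ cell transcripts. In mouse testis the pathway sits in cytoplasmic granules, the intermitochondrial cement of spermatocytes and the chromatoid body of round spermatids, where Tudor proteins hold PIWI proteins by their methylated arginines and RNA helicases handle the precursors. Its genes are known from fetal germ cells, spermatocytes and round spermatids.

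Promoter sequences of the members are shown first, as a description, and their part in the levels below was not tested. The RefSeq promoter table for GRCm38.p6, the assembly that mm10 denotes, spans 250 bases before to 50 bases after a start site and held 12 windows of 8 members. It held none for Piwil2 and Tdrd6. The windows below run 5′ to 3′ on the gene's strand. Capitals mark CACGTG, a form of the E-box that some basic helix-loop-helix factors bind, and AACTG or its reverse complement CAGTT, a core of the sites that MYB proteins bind. Other forms of the E-box are not marked. The first 4 are members with CACGTG, and Tdrd7, shown by 1 of its 3 windows, is a member that holds AACTG and no CACGTG.
Mael, chr1:166238695-166238994, minus strand: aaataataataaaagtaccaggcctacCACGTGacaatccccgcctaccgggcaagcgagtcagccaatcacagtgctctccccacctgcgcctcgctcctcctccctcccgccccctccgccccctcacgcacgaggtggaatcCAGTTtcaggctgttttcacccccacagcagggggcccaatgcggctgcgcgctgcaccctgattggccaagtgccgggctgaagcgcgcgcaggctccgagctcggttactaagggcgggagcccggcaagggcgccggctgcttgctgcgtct
Ddx4, chr13:112652261-112652560, minus strand: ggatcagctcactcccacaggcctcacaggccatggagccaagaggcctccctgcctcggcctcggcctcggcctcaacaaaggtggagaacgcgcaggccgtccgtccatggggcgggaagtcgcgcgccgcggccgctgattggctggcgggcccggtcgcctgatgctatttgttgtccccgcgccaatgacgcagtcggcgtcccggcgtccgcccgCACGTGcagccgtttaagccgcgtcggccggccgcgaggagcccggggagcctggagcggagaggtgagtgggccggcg
Piwil1, chr5:128735996-128736295, plus strand: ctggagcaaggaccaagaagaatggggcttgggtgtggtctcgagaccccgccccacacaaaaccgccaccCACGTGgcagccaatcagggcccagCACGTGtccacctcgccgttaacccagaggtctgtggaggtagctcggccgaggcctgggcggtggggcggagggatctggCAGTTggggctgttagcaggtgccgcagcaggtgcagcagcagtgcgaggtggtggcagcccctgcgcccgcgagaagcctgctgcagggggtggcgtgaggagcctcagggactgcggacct
Tdrd9, chr12:111971309-111971608, plus strand: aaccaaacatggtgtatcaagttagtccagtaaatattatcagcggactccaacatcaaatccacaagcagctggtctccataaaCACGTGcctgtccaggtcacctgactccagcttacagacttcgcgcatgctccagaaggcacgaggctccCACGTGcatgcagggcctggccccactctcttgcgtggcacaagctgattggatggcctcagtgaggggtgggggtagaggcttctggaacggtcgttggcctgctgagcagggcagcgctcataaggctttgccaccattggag
Tdrd7, chr4:45972581-45972880, plus strand: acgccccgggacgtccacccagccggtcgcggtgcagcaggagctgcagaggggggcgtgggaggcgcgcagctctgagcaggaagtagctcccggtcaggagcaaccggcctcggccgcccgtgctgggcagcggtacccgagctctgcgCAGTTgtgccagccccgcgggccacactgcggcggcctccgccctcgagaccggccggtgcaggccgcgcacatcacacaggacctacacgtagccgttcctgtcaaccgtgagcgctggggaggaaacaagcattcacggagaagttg

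Of 5 motifs searched on both strands, CACGTG, which reads the same on both, was in windows of 6 of the 8 members: Ddx4, Mael, Mov10l1, Piwil1, Tdrd1 and Tdrd9. It was in 7 of the 12 windows, 58.3%, of which a pair of overlapping Tdrd1 windows share 1 match, against 7.15% of all 32851 windows. Among the 14281 windows with at least 10 CG dinucleotides it was in 10.9%, and 10 of the members' windows have that many. Of 20 other piRNA pathway genes with a window, 5 held it, namely Ddx25, Dnmt3l, Fkbp6, Pld6 and Stk31. AACTG was in windows of 4 members (Mael, Piwil1, Tdrd1 and Tdrd7) and 44.8% of all windows, and TCCCGC in windows of 3 members and 6562 of all windows. CCAAT was in 5 members and 37.4%, and TATAAA in 2 members and 13.6%. Matches of different motifs did not overlap in the members' windows (0 overlaps). The motifs were chosen after the sequences had been seen, no test was made, and a match describes letters only.

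The libraries were deep enough for most members. Gene counts per library ran from 1882555 (HFD 4) to 5153818 in HFD and from 3172721 to 7783981 in CD. Libraries HFD 4 and HFD 8 stood apart from the other 14. In HFD 4 and HFD 8, summed meiotic spermatocyte markers reached 4084 and 3257 CPM (gene counts scaled to a library's total), against 249.4 to 766 CPM in the other HFD libraries and 188 to 1121 CPM in CD. Late spermatid markers such as the protamines, which define the labelled tissue, were in every library, at 17460 and 52300 CPM in HFD 4 and HFD 8, 2832 to 9776 CPM in the other HFD libraries and 2158 to 11990 CPM in CD. Markers of the epididymal epithelium, the lining of the duct where sperm mature, were at 10840 and 8525 CPM in HFD 4 and HFD 8, 37970 to 54530 CPM in the other HFD libraries and 23480 to 64620 CPM in CD. Round spermatid markers were at 3393 and 1334 CPM in these libraries, 120.8 to 635 CPM in other HFD and 101 to 643 CPM in CD. For stroma the sums were 1418 and 1274 CPM in HFD 4 and HFD 8, against 497 to 981 CPM in other HFD and 364 to 1065 CPM in CD, with all 14 genes counted in every library. The leukocyte sums were 947 and 1290 CPM in HFD 4 and HFD 8, 340.5 to 1039 CPM in other HFD and 215 to 930 CPM in CD. Sertoli cell markers stayed at 176 to 410 CPM in all libraries, with Amh and Fshr at 0. Spermatogonial markers were at 53.9 to 297 CPM, with Sohlh1 and Lin28a at 0. Leydig cell markers were at 26.03 to 146 CPM, with Insl3 at 2 counts and Lhcgr at 5 in all libraries together. Most counts of these lists were of Ctsl for Sertoli cells (10236 counts), Gfra1 for spermatogonia (6044) and Cyp17a1 for Leydig cells (3556). CPM are shares of a library, so in such bulk samples more germ cells, more RNA per germ cell and less RNA of other cells cannot be told apart. The diet and slope results below are given with and without HFD 4 and HFD 8. These libraries also had the largest shares of reads in no feature, 76.1% and 75%, against 58.0% to 67.6% in the other HFD libraries and 59.8% to 67.9% in CD. Their shares of reads in genes were the smallest, 8.02% and 9.16%, against 11.3% to 15.3% in the other HFD libraries and 10.3% to 20.1% in CD.

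The members spanned a wide range of levels, given for single genes as CPM scaled by the trimmed mean of M-values (TMM). Per kb of exon, and by the median of the 16 libraries, the order was Mael at 139 CPM per kb, Ddx4 at 17.2, Tdrd6 at 12.3, Tdrd7 at 10.3, Piwil2 at 7.78, Tdrd1 at 2.62, Piwil1 at 2.16, Tdrd5 at 1.61, Mov10l1 at 0.876 and Tdrd9 at 0.735 CPM per kb. Mael lay above Ddx4 in 16 of 16 libraries, Ddx4 above Tdrd6 in 13, Tdrd7 above Piwil2 in 14 and Piwil2 above Tdrd1 in 15. Other neighbours changed places: Tdrd6 lay above Tdrd7 in 9 libraries, Tdrd1 above Piwil1 in 10, Piwil1 above Tdrd5 in 12, Tdrd5 above Mov10l1 in 11 and Mov10l1 above Tdrd9 in 7. The exon lengths are merged GENCODE M21 basic exons, from 1733 bases in Mael to 7062 bases in Tdrd6.

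**Figure D1:**
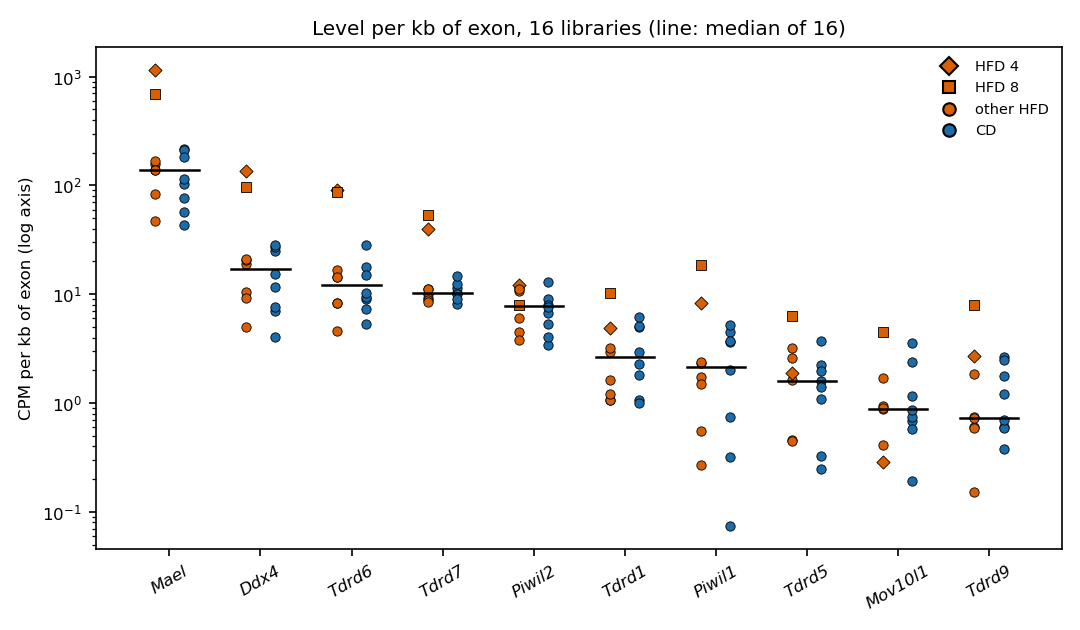
Level of each member in CPM per kb of exon (log axis) in 8 HFD and 8 CD libraries, 1 point a library, with the median of 16 as a line. Mael stands at a median of 139 and the other members at 17.2 or less. The values of 0, for Tdrd5 in HFD 7 and Mov10l1 in HFD 3, are not drawn.

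Of the PIWI proteins, Piwil1 (MIWI, the PIWI protein of pachytene spermatocytes and round spermatids; chromosome 5, 128702524 to 128755474, where 4930553I04Rik lies on the other strand and shares no exon) had 1.11, 8.38 and 76.4 CPM as the lowest, median and highest of HFD, against 0.306, 11.6 and 21.5 CPM in CD. The highest values were in HFD 8 and, at 34.5 CPM, HFD 4, and the other 6 HFD libraries, at 1.11 to 9.82 CPM, lay within the CD range. The lowest values rest on 3 counts in HFD 7 and 1 count in CD 4.

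Piwil2 (MILI, the PIWI protein present from fetal germ cells to round spermatids; chromosome 14, 70372477 to 70429383) had 18.9, 46.0 and 59.5 CPM in HFD, against 16.9, 35.4 and 63.2 CPM in CD. Its highest value was in CD 3, followed by HFD 4 at 59.5 and HFD 2 at 56.6 CPM, and HFD 8 stood in the middle at 39.4 CPM. It varied 3.73-fold between the lowest and highest library, against 250-fold for Piwil1, or 68.9-fold without CD 4, where Piwil1 had 1 count. The diets overlapped throughout.

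Among the helicases, Ddx4 (the Vasa homologue and a germ cell marker; chromosome 13, 112598333 to 112652475) had 15.2, 59.9 and 406 CPM in HFD, against 12.2, 40.6 and 85.6 CPM in CD. HFD 4 held 406 CPM and HFD 8 held 292 CPM, and no other HFD library exceeded 63.3 CPM. Mov10l1 (the helicase that binds piRNA precursors; chromosome 15, 88982909 to 89055152) had 0, 3.67 and 18.5 CPM in HFD, against 0.794, 3.33 and 14.8 CPM in CD. Its HFD 8 value of 18.5 CPM came from 53 counts, while HFD 4 had 1.19 CPM from 2 counts. In HFD 3 it had 0 counts, which at this depth allows up to 1.05 CPM of gene counts (the level of 3 counts, for counting error only). Tdrd9 (a helicase with a Tudor domain, partner of the fetal PIWI protein PIWIL4; chromosome 12, 111971559 to 112068854, where Rd3l lies on the other strand and shares no exon) had 0.739, 3.54 and 38.0 CPM in HFD, against 1.83, 4.60 and 12.8 CPM in CD. HFD 8 and, at 13.1 CPM, HFD 4 were its highest libraries.

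Mael (Maelstrom, needed for transposon silencing and for making pachytene piRNAs; chromosome 1, 166201201 to 166238747) was the most abundant member. It had 80.9, 257 and 2002 CPM in HFD, against 75.8, 189 and 375 CPM in CD. HFD 4 at 2002 CPM and HFD 8 at 1199 CPM lay above all CD libraries, and the other 6 HFD libraries ran from 80.9 to 292 CPM, inside the CD range.

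Of the Tudor proteins, Tdrd6 (an organiser of the chromatoid body; chromosome 17, 43615335 to 43630299) had 32.5, 102 and 642 CPM in HFD, against 37.6, 69.5 and 202 CPM in CD, with 642 CPM in HFD 4 and 609 CPM in HFD 8. Tdrd7 (also of the chromatoid body; chromosome 4, 45965334 to 46034761) had 32.5, 40.8 and 205 CPM in HFD, against 31.2, 39.9 and 56.7 CPM in CD. Outside HFD 8 at 205 CPM and HFD 4 at 154 CPM, Tdrd7 kept to 31.2 to 56.7 CPM in 14 libraries.

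Tdrd1 (which binds PIWIL2 in the intermitochondrial cement; chromosome 19, 56826209 to 56870012) had 5.76, 12.5 and 56.5 CPM in HFD, against 5.50, 14.3 and 33.8 CPM in CD. HFD 8 was highest, and HFD 4 at 26.8 CPM lay below CD 8, CD 5 and CD 1. Tdrd5 (needed for pachytene piRNAs; chromosome 1, 156255296 to 156303664) had 0, 6.65 and 23.7 CPM in HFD, against 0.926, 5.61 and 13.9 CPM in CD. HFD 8 was highest again, HFD 4 had 7.14 CPM, and HFD 7 had 0 counts, which allows up to 1.06 CPM of gene counts. An exon of Tdrd5 overlaps the antisense gene 4930518J20Rik, whose reads cannot be told apart without a stated strand setting.

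**Figure D2:**
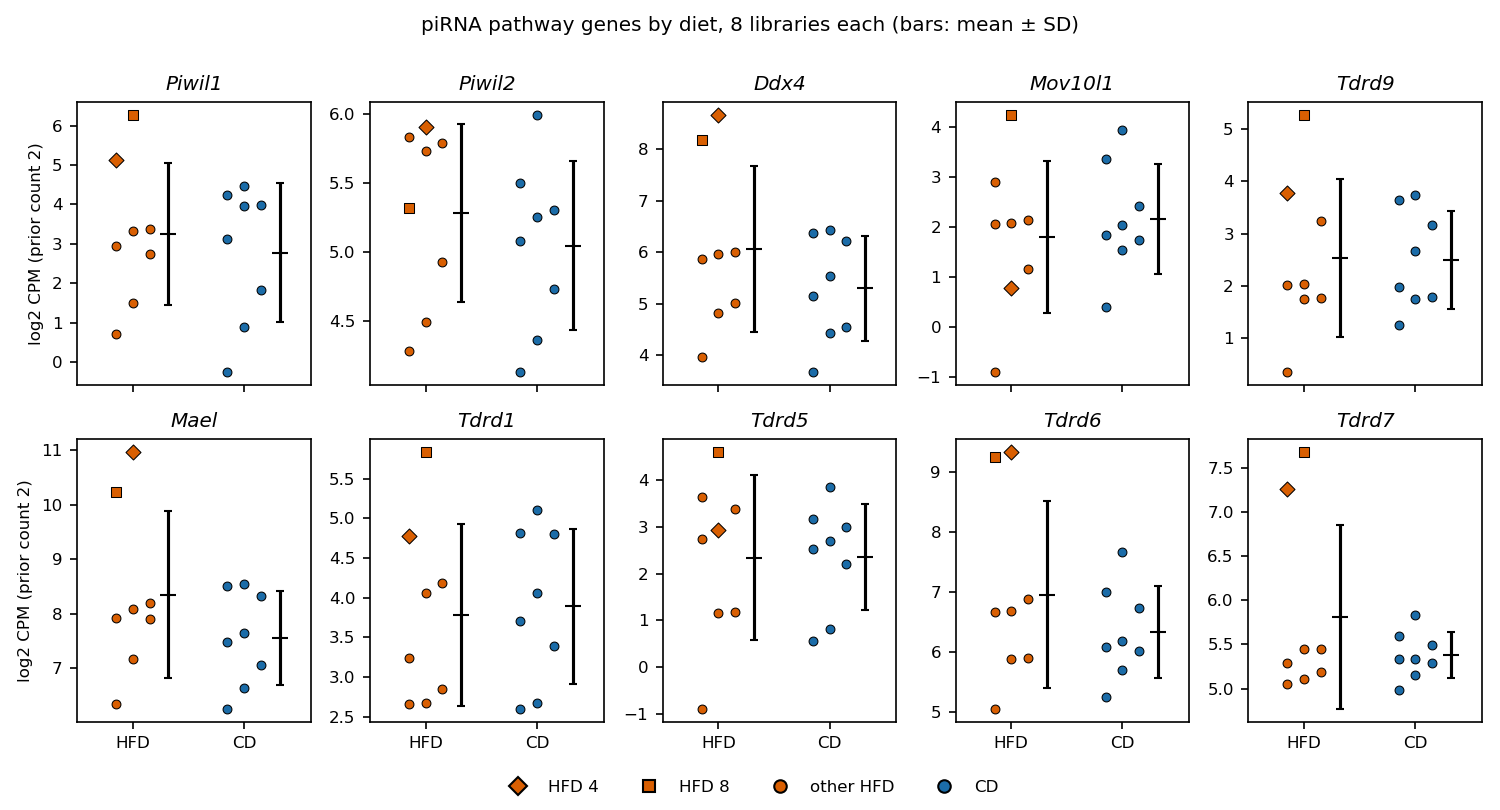
log2 CPM (prior count 2) of the 10 members in HFD libraries (left in each panel) and CD libraries (right), 1 point a library, with mean ± SD of 8 at the side. HFD 4 (diamond) and HFD 8 (square) are the highest libraries for Mael, Ddx4, Tdrd6, Tdrd7, Piwil1 and Tdrd9, and the other 6 HFD libraries overlap CD in each panel.

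No member passed the threshold between the diets after adjustment. Diets were compared with edgeR's quasi-likelihood test, adjusted by Benjamini-Hochberg over 13149 tested genes with a threshold of 0.05. All 10 members passed the expression filter, 0 of the 10 passed the threshold, and among all tested genes 0 did (0%). At an unadjusted p under 0.05 the test held 3 members, Mael, Ddx4 and Tdrd6, each higher in HFD, beside 10.2% of all tested genes that were higher in HFD at that level. DESeq2 called 0 members, beside 1 of all genes (0.00761%), with 4 at an unadjusted p under 0.05, beside 13.8% of all genes in either direction. With limma-voom 0 members were called and 0 were at that level, beside 3.8% of all genes. 

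Mean levels of Mael were 559 ± 681 CPM under HFD and 218 ± 119 CPM under CD (SD, n = 8 each), and its log2 fold change was 1.36 ± 0.59 (SE; edgeR adjusted p = 0.434). Those of Ddx4 were 119 ± 146 CPM under HFD and 47.5 ± 29.5 CPM under CD, with a log2 fold change of 1.33 ± 0.63 (SE; edgeR adjusted p = 0.442). Those of Tdrd6 were 215 ± 255 CPM under HFD and 91.0 ± 53.4 CPM under CD, with a log2 fold change of 1.24 ± 0.58 (SE; edgeR adjusted p = 0.442). In each, the HFD spread exceeded the HFD mean. Tdrd7 had a log2 fold change of 0.81 ± 0.39, Piwil1 0.82 ± 0.79, Tdrd9 0.54 ± 0.65, Tdrd5 0.40 ± 0.69, Piwil2 0.25 ± 0.30, Tdrd1 0.05 ± 0.51 and Mov10l1 -0.09 ± 0.69 (SE), with edgeR adjusted p from 0.447 for Tdrd7 to 0.978 for Tdrd1. The value was positive for 9 of the 10 members, with a median of 0.67, against 49.6% positive and a median of -0.0042 over all tested genes.

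Without HFD 4 and HFD 8 the direction turned for most members. These libraries were set apart for values seen in these data. They hold the highest values of Mael, Ddx4, Tdrd6, Tdrd7, Piwil1 and Tdrd9. Leaving them out therefore lowers HFD over CD for these genes by construction, and the shift is not a test. The log2 fold change was then positive for 1 of the 10 members, Piwil2 at 0.17 ± 0.31 (SE), with a median of -0.19 over the members, against 49.2% positive and a median of -0.0046 over 13448 tested genes. Mael stood at -0.03 ± 0.38, Ddx4 at -0.13 ± 0.44, Tdrd6 at -0.20 ± 0.36, Tdrd7 at -0.13 ± 0.17, Tdrd5 at -0.17 ± 0.69, Mov10l1 at -0.66 ± 0.65, Tdrd9 at -0.74 ± 0.53, Tdrd1 at -0.76 ± 0.43 and Piwil1 at -0.77 ± 0.68 (SE). The edgeR adjusted p was 1 for each, and 0 members had an unadjusted p under 0.05, against 2.17% of all genes. Mael then averaged 212 CPM ± 82.1 in HFD (SD, n = 6) and 218 ± 119 in CD. HFD 4 and HFD 8 are also the libraries with the highest sums of meiotic and stromal markers and the lowest sums of epididymal markers, and with the most reads in no feature, and the part of these in the diet values was not tested here. With limma-voom and sample weights over all 16 libraries, the log2 fold change was 0.23 for Mael, 0.28 for Ddx4, 0.025 for Tdrd6 and 0.0013 for Tdrd7, and its median over the members was -0.03.

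Single libraries moved the values as well. The log2 fold change of Mael was 0.72 without HFD 4, that of Ddx4 0.75 and that of Tdrd6 0.78. Without HFD 8, Tdrd7 stood at 0.37, Piwil1 at -0.07, Tdrd5 at -0.11, Tdrd9 at -0.34, Tdrd1 at -0.48 and Mov10l1 at -0.79. Piwil2 ranged from 0.14 without CD 2 to 0.42 without CD 3. The summed CPM of the members averaged 1008 ± 1060 in HFD and 490 ± 255 in CD (SD, n = 8 each), and the difference of mean log2 sums was 0.62, or -0.05 without HFD 4 and HFD 8.

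**Figure D3:**
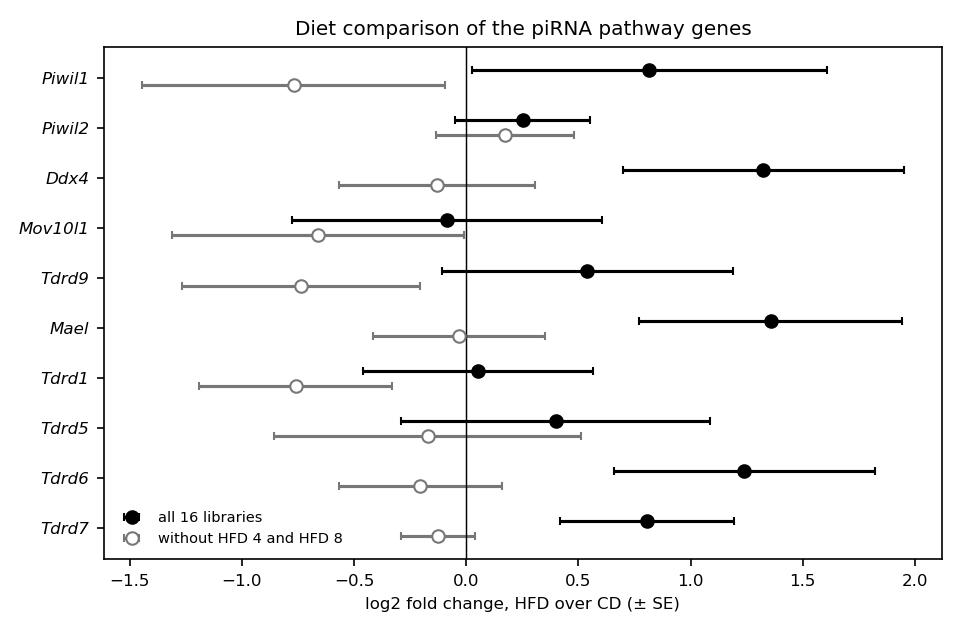
log2 fold change, HFD over CD, with SE for each member, from all 16 libraries (filled) and without HFD 4 and HFD 8 (open). Mael is at 1.36 with all libraries and -0.03 without these 2, Tdrd1 at 0.05 and -0.76, and Piwil2 at 0.25 and 0.17.

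The members followed the germ cell marker sums of a library to different degrees. The meiotic sum holds 20 spermatocyte genes, such as Sycp1 and Hspa2, and no member. It is not an even score of them, as Hspa2 averaged 310 CPM over 16 libraries and Sycp1 14.2 CPM. Of the 20, 15 passed the expression filter, and Dmc1 and Spo11 held 10 and 73 counts in all libraries together. Each gene's log2 level was fitted on the log2 meiotic sum with diet in the model, where a slope of 1 means proportion, an addition made after the data were seen. Of the 10 members, 9 rose with the sum at an edgeR adjusted p under 0.05, against 24.7% of all tested genes. Mael had a slope of 1.03 ± 0.06 (SE; edgeR adjusted p = 7.62e-12), Ddx4 1.12 ± 0.07 (edgeR adjusted p = 1.49e-11) and Tdrd6 0.99 ± 0.08 (edgeR adjusted p = 6.63e-10). Piwil1 rose at 1.34 ± 0.18, Tdrd9 at 1.05 ± 0.17, Tdrd5 at 0.81 ± 0.27, Tdrd1 at 0.78 ± 0.14 and Mov10l1 at 0.62 ± 0.25 (SE), with edgeR adjusted p up to 0.0466 for Mov10l1. The Mov10l1 call was lost without any of 10 of the libraries, and without HFD 8 its slope was 0.32 (edgeR adjusted p = 0.476) and that of Tdrd5 0.72 (edgeR adjusted p = 0.119). Tdrd7 rose at 0.57 ± 0.08, and Piwil2 did not pass, at 0.16 ± 0.13 (SE; edgeR adjusted p = 0.307). The late spermatid sum in place of the meiotic one gave a like picture, with 9 of 10 members rising against 22.3% of all genes and slopes of 0.96 for Mael, 1.01 for Ddx4, 1.28 for Piwil1 and 0.12 for Piwil2.

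Within the 14 libraries that exclude HFD 4 and HFD 8, 6 members still rose with the meiotic sum, against 9.34% of 13448 genes. These were Mael with a slope of 1.01 ± 0.08, Ddx4 1.17 ± 0.12, Piwil1 1.80 ± 0.34, Tdrd6 0.83 ± 0.13, Tdrd9 1.09 ± 0.28 and Tdrd1 0.90 ± 0.23 (SE), with edgeR adjusted p from 1.22e-07 for Mael to 0.0114 for Tdrd1. Tdrd5 at 1.31 ± 0.49, Mov10l1 at 0.74 ± 0.39, Piwil2 at 0.23 ± 0.22 and Tdrd7 at 0.20 ± 0.11 (SE) did not pass, with edgeR adjusted p of 0.085, 0.251, 0.572 and 0.251. For Tdrd7 the slope of 0.57 over 16 libraries thus rests on HFD 4 and HFD 8.

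The level of Mael, which is not in the meiotic sum, equalled 31.0% to 52.0% of that sum in all 16 libraries, while the level itself spanned 26.4-fold. Hspa2 had the highest mean of the sum's tested genes, 310 CPM, and is among the genes most parallel to Mael. The ratio of Mael to the sum thus partly repeats that parallel. This ratio averaged 39.6% ± 4.91 in HFD and 38.7% ± 5.94 in CD (SD, n = 8 each), with 43.8% in HFD 4 and 34.5% in HFD 8. Ddx4 averaged 8.16% ± 1.89 in HFD and 8.02% ± 1.53 in CD, and Tdrd6 15.04% ± 2.53 in HFD and 17.1% ± 5.66 in CD. Piwil2, by contrast, had its lowest ratios in HFD 8 at 1.13% and HFD 4 at 1.30%, and its highest, 16.3%, in CD 4, the library with the smallest meiotic sum.

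**Figure D4:**
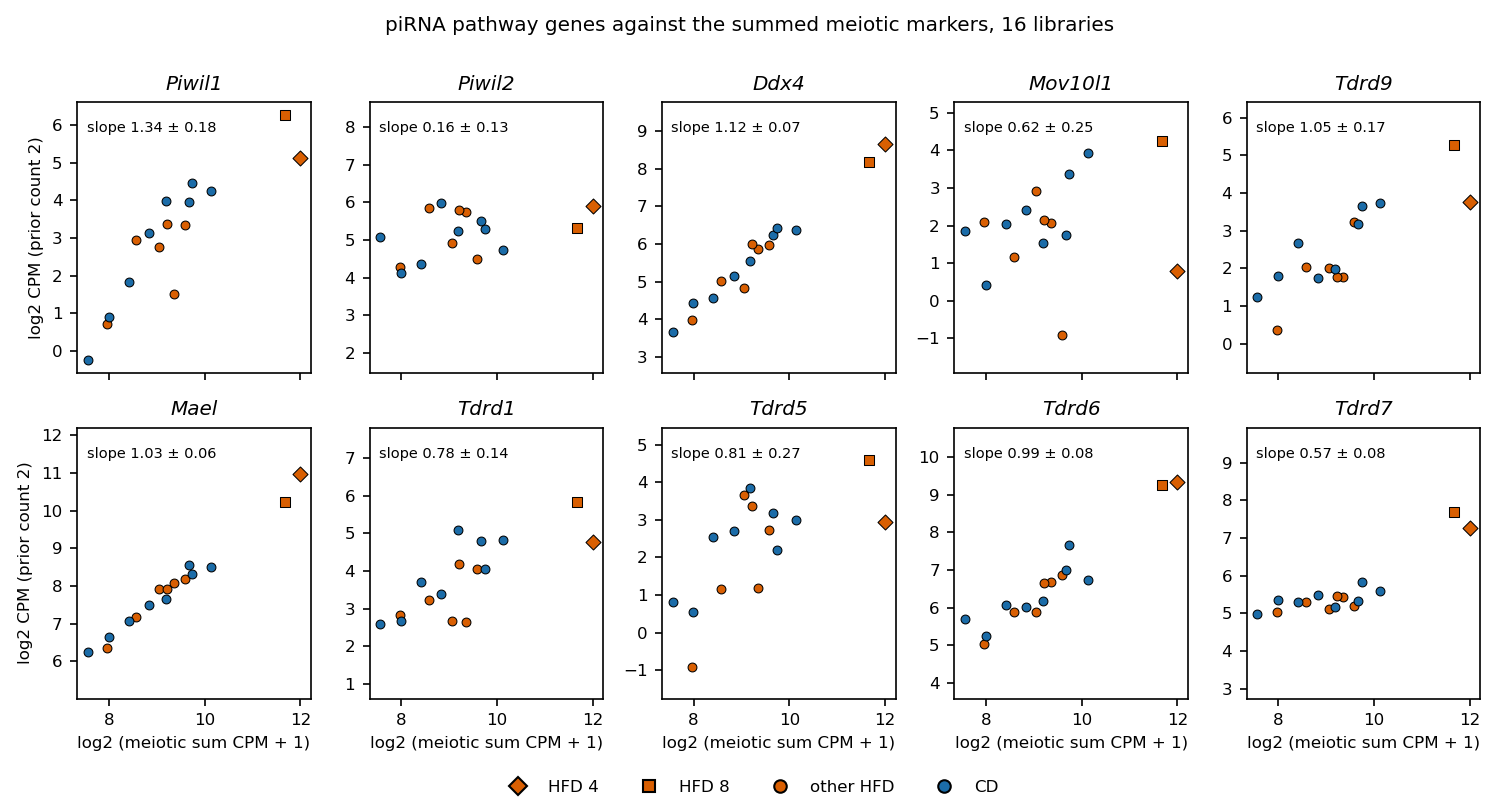
log2 CPM (prior count 2) of each member against log2 of the summed meiotic markers, 16 libraries, with the fitted slope ± SE; each vertical axis spans the same number of log2 units. Mael, Ddx4 and Tdrd6 lie along slopes of 1.03, 1.12 and 0.99, and Piwil2 is nearly flat at 0.16.

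Pairs of members ran in parallel to different degrees. By the SD over 16 libraries of the difference in log2 CPM, the closest pair was Ddx4 and Mael at 0.28, followed by Mael and Tdrd6 at 0.38 and Ddx4 and Tdrd6 at 0.39, and the most distant was Piwil1 and Mov10l1 at 1.79. Without HFD 4 and HFD 8 these SDs were 0.30, 0.39, 0.41 and 1.64. Rare members carry more counting error in this measure, and its part in that order was not tested. Of 13139 other genes, those most parallel to Mael were Ldhc, the sperm lactate dehydrogenase, at 0.20, Hspa2, a meiotic heat shock protein, at 0.21 and Cmtm2a at 0.21. The same genes were closest to Ddx4, with Ldhc at 0.23, Cmtm2a at 0.25 and Hspa2 at 0.26. Lyar at 0.26, Ccdc60 at 0.27 and Ypel1 at 0.28 were closest to Tdrd6. Hspa2 is also 1 of the genes of the meiotic sum.

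HFD 4 and HFD 8 both held counts of all 10 members, at levels that differed between them. Mael in HFD 8 was 0.599 times its HFD 4 level, with a 95% exact binomial counting interval of 0.571 to 0.628, Ddx4 0.718 times (0.648 to 0.796) and Piwil2 0.662 times (0.501 to 0.875). Tdrd6 was 0.949 times (0.879 to 1.02), an interval that includes 1. Tdrd7 was 1.33 times its HFD 4 level (1.15 to 1.55), Tdrd1 2.11 times (1.51 to 3), Piwil1 2.21 times (1.65 to 3.01), Tdrd9 2.90 times (1.82 to 4.82), Tdrd5 3.32 times (1.78 to 6.74) and Mov10l1 15.5 times (4.09 to 132). Marker sums differed too: in HFD 8 the round spermatid sum was 0.393 times, the meiotic sum 0.798 times and the late spermatid sum 3 times its level in HFD 4. The sums are CPM of gene totals and the member ratios are TMM-scaled, with factors of 0.906 in HFD 4 and 0.952 in HFD 8, so the scales differ slightly. These intervals cover counting error of a pair of libraries, amplified copies are not separate molecules, and no comparison of conditions follows from them.

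**Figure D5:**
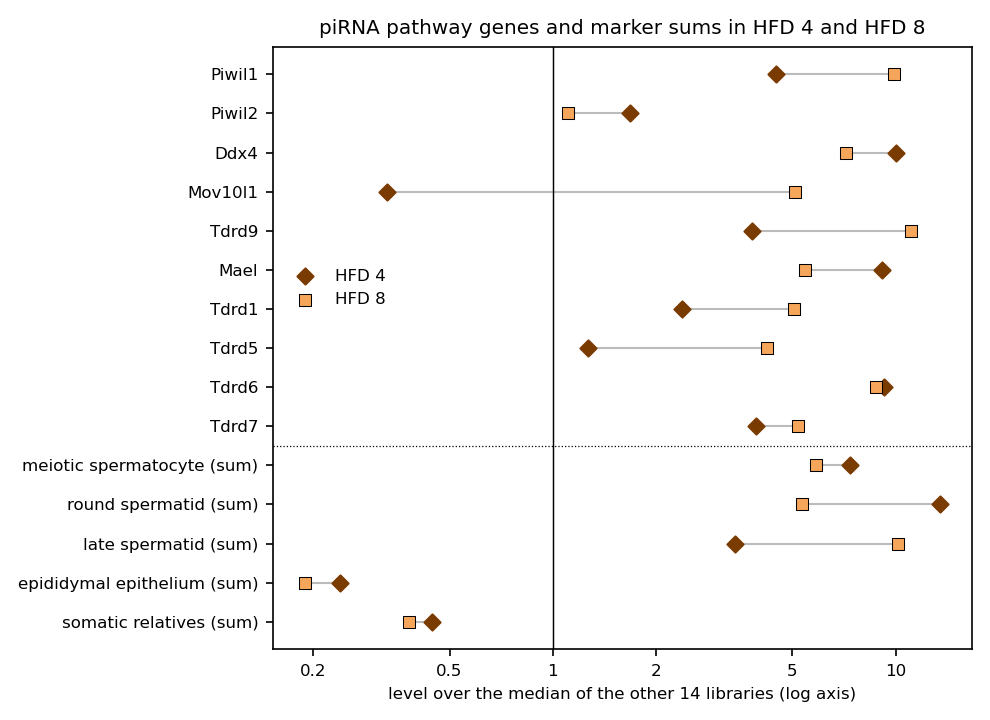
Level in HFD 4 (diamonds) and HFD 8 (squares) over the median of the other 14 libraries, on a log axis, for the 10 members and 5 summed lists. Members are TMM-scaled CPM and sums are CPM of gene totals. Mael is at 9.10 and 5.45, Piwil1 at 4.49 and 9.92, and Mov10l1 at 0.328 and 5.10, and the epididymal sum is at 0.240 and 0.189.

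Other genes of the pathway, from a list of 28, were not called between the diets either. The table had rows for 24 of them, 12 were tested, and 0 passed the diet threshold in edgeR, with 4 at an unadjusted p under 0.05, all higher in HFD, beside the 10.2% of all genes. DESeq2 and limma-voom also called 0. Of the 12, 10 had a positive log2 fold change with a median of 1.09, and without HFD 4 and HFD 8, 7 did with a median of 0.07. Gtsf1, a small zinc finger partner of PIWI proteins, had a mean of 170.0 ± 222 CPM under HFD and 55.6 ± 30.4 CPM under CD (SD, n = 8 each), and 54.1 CPM ± 27.3 in HFD without HFD 4 and HFD 8. Ddx25, a testis helicase of the chromatoid body, had 144 ± 188 CPM under HFD and 48.6 ± 24.3 CPM under CD, and Kif17, a kinesin, 84.6 ± 82.2 CPM under HFD and 43.1 ± 21.7 CPM under CD. Without HFD 4 and HFD 8 the HFD means were 52.3 ± 24.9 CPM for Ddx25 and 40.8 ± 13.9 CPM for Kif17 (SD, n = 6). Tex15, which acts with PIWIL4 in fetal transposon silencing, had 77.8 ± 114 CPM under HFD and 27.9 ± 20.2 CPM under CD. Rnf17, a Tudor protein, had 72.1 ± 78.7 CPM under HFD and 31.0 ± 21.7 CPM under CD, and Gtsf1l 58.6 ± 77.4 CPM under HFD and 17.7 ± 11.2 CPM under CD. Without HFD 4 and HFD 8 the HFD means of these 3 were 31.9 ± 19.9 CPM for Tex15, 31.1 ± 14.9 CPM for Rnf17 and 22.7 ± 13.0 CPM for Gtsf1l. As with Mael, Ddx4 and Tdrd6, the HFD spread exceeded the HFD mean in 5 of these 6 genes, all but Kif17.

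With the meiotic sum, 9 of these 12 genes rose, against the same 24.7% of all genes, among them Ddx25 with a slope of 1.03 ± 0.07, Gtsf1 1.05 ± 0.08 and Tex15 1.11 ± 0.12 (SE), with edgeR adjusted p of 3.2e-11, 4.36e-10 and 4.35e-08. Tdrkh at 0.07 ± 0.17, Exd1 at -0.32 ± 0.21 and Morc1 at -0.15 ± 0.29 (SE) did not pass. Within the 14 libraries without HFD 4 and HFD 8, 6 of the 12 rose, against 9.34% of all genes, with slopes of 0.94 ± 0.11 for Ddx25, 0.85 ± 0.14 for Gtsf1 and 1.32 ± 0.18 for Tex15 (SE). The 12 genes with rows that were not tested held between 1 count in all 16 libraries together (Nanos2) and 247 counts (Pld6, the nuclease that cuts piRNA precursors). Among them were Piwil4, the fetal PIWI protein, with 109 counts, and Asz1, Gpat2, Henmt1 and Fkbp6 with 225, 144, 211 and 226 counts.

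Relatives of the pathway that somatic cells use did not rise with the meiotic sum. Of 8 such genes, 4 Argonautes and Mov10, Tdrd3, Snd1 and Ddx3x, 0 rose and 4 fell with the sum, beside 24.7% and 24.2% of all genes. These were Snd1 with a slope of -0.49 ± 0.09, Ago2 -0.36 ± 0.09, Ddx3x -0.33 ± 0.09 and Ago1 -0.28 ± 0.11 (SE), with edgeR adjusted p from 0.000147 for Snd1 to 0.0295 for Ago1. Other somatic lists differed, so a rise was not limited to germ cell genes. Of tested stromal markers 9 of 14 rose and 1 fell, of leukocyte markers 5 of 13 rose and 0 fell. Of epididymal markers 1 of 15 rose and 11 fell. All 12 tested round spermatid and all 22 late spermatid markers rose. Within the 14 libraries without HFD 4 and HFD 8, Ago1 stood at -0.40 ± 0.13 (edgeR adjusted p = 0.0402), Snd1 at -0.15 ± 0.08, Ago2 at -0.13 ± 0.11 and Ddx3x at -0.27 ± 0.14. The share of all genes that fell in these 14 libraries was not counted, so the Ago1 value has no background beside it. In the diet comparison 0 of the 8 passed in edgeR. Ddx3x had 178 ± 74.1 CPM under HFD and 217 ± 74.9 CPM under CD, Snd1 122 ± 55.0 CPM under HFD and 156 ± 22.5 CPM under CD, and Ago2 68.6 ± 27.0 CPM under HFD and 82.7 ± 18.5 CPM under CD. Without HFD 4 and HFD 8 the HFD means were 204 ± 66.1 CPM for Ddx3x, 152 ± 11.7 CPM for Snd1 and 81.9 ± 13.0 CPM for Ago2 (SD, n = 6). Tdrd3, a Tudor protein of somatic cells, was the 1 gene of 8 at an unadjusted p under 0.05. It was lower in HFD, with 43.2 ± 6.08 CPM under HFD and 56.7 ± 9.001 CPM under CD (SD, n = 8 each). At that level were 11.3% of all genes in either direction, but 10.2% of all genes were higher in HFD, so few were lower. The log2 fold change of Tdrd3 was -0.39 ± 0.16 (SE; edgeR adjusted p = 0.434). Without HFD 4 and HFD 8 it was -0.37 ± 0.16 (SE; edgeR unadjusted p = 0.031). Beside it, 2.17% of all genes were under 0.05 in either direction, and 0 passed after adjustment.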

How the data were processed

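RNA of motile sperm from 8 HFD and 8 CD mice was sequenced. The authors deposited raw read counts per gene symbol, 1 column per library, with 5 summary rows kept out of library sizes and tests here. These rows held 58.0% to 76.1% of a library's reads as no feature and 15.8% to 30.7% as not uniquely aligned. STAR, HTSeq 1.0.0, DESeq2 1.0.19 and mm10 are named, per the submitters' processing notes, without roles. For annotation and strand the sources used here state nothing. Libraries were treated as separate animals, as the series describes 8 mice per diet. Pairs of libraries of 1 diet differed by chi-square values of 12.7 to 172 per degree of freedom (56 pairs), so none was counted as a copy.

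From the counts, edgeR 4.0.16 (R 4.3.3) gave TMM factors, its default filter, the quasi-likelihood test with robust estimation and diet as the sole term. SE is the fold change over the root of F. Summed lists are CPM of gene totals, differences of sums used a pseudocount of 1, and log2 CPM used a prior count of 2. Gene positions and exons are GENCODE M21 (GRCm38). Older symbols were matched by RefSeq synonyms. Alternatives were DESeq2 1.42.0, limma-voom (limma 3.58.1), other scaling and filters, Rn45s left out, the title number as a block, germ cell sums as covariates, and libraries left out. The named genes were the members, the 6 and 4 most abundant tested genes of the pathway and relative lists with any past the threshold, and the 3 genes most parallel to each of the 3 most abundant members; of marker lists, the sums are given. Piwil4, Asz1, Gpat2, Henmt1, Fkbp6, Pld6, Nanos2, Tdrkh, Exd1, Morc1, Ago1, Apoh, Amh, Fshr, Sohlh1 and Lin28a were named after their values were seen. So were Dmc1, Spo11, Insl3, Lhcgr, Ctsl, Gfra1 and Cyp17a1. Members and lists were chosen with earlier results of these data known.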

Additional observations from a re-analysis of the deposited data

Results flagged for a closer look

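In 22 groups of 8 libraries, the values of each member and of their sum in each diet, a single library lay far from the rest 4 times, each time HFD 8 as the highest of the HFD libraries. The measure is the gap to the nearest library over the range of the group, with a critical value of 0.526. It can miss a pair of libraries that are high together. In HFD it was 0.418 for Mael, 0.293 for Ddx4 and 0.0542 for Tdrd6, where HFD 4 and HFD 8 were both highest. Chance marks about 1 group in 20 where values are normally distributed, which the linear CPM used here, skewed to high values, are not. On log2 CPM, a scale added after the data were seen, 0 of the 20 groups of single members passed, and the gaps of the 4 genes were 0.204 for Piwil1, 0.334 for Tdrd1, 0.305 for Tdrd9 and 0.261 for Mov10l1. Piwil1 had 76.4 CPM in HFD 8 and 34.5 CPM in the next library, a gap of 0.556 of the range. Tdrd1 had 56.5 CPM, against 26.8 in the next library (0.586), and Tdrd9 38.0 CPM, against 13.1 (0.668). Mov10l1 had 18.5 CPM, against 6.97 in the next library (0.623). The HFD 8 values come from 219 counts of Piwil1, 162 of Tdrd1, 109 of Tdrd9 and 53 of Mov10l1. Late spermatid markers also had their highest sum in HFD 8, and their part in these values was not tested.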

How the results depend on the processing

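Members called by diet numbered 0 under all 28 alternatives, and so did the other pathway genes. DESeq2 called 1 gene of all tested, Apoh, and each other alternative 0. The direction of a member turned under these alternatives, in log2 fold change, with the cause not tested. With limma-voom, Piwil1 was -0.052, Tdrd1 -0.56, Tdrd5 -0.65 and Tdrd9 -0.62, and Mael stayed positive at 0.23, Ddx4 at 0.28, Tdrd6 at 0.025 and Tdrd7 at 0.0013. With upper-quartile scaling Tdrd1 was -0.076. With the late spermatid sum as a covariate, Piwil1 was -0.30, Tdrd1 -0.53, Tdrd5 -0.37 and Tdrd9 -0.56. With the meiotic sum as a covariate, Piwil1 was -0.47, Ddx4 -0.032, Tdrd1 -0.67, Tdrd5 -0.30, Tdrd6 -0.14 and Tdrd9 -0.67. Without HFD 4 and HFD 8, Piwil1 was -0.77, Ddx4 -0.13, Mael -0.034, Tdrd1 -0.76, Tdrd5 -0.17, Tdrd6 -0.20, Tdrd7 -0.13 and Tdrd9 -0.74. Leaving out single libraries gave ranges of -0.071 to 1.06 for Piwil1, 0.14 to 0.42 for Piwil2, 0.75 to 1.499 for Ddx4, 0.72 to 1.53 for Mael, -0.48 to 0.30 for Tdrd1, -0.11 to 0.74 for Tdrd5, 0.78 to 1.51 for Tdrd6, 0.37 to 0.93 for Tdrd7, -0.34 to 0.79 for Tdrd9 and -0.79 to 0.37 for Mov10l1, and 0.31 to 0.89 for the summed members.

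With the title number as a replicate block, Tdrd1 was -0.088 and Tdrd9 -0.063, Mael 0.60, Ddx4 0.57, Tdrd6 0.51 and Piwil1 0.28, and 0 genes were called. Of 8 same-numbered pairs, 4 had deviations correlated above 0.1 (-0.395 to 0.605), and 2 of 8 HFD libraries correlated best with their own number, so the numbers were not taken to pair animals.

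The count of all genes that rose with the meiotic sum was 3244, or 1256 without HFD 4 and HFD 8, and 2788 to 3459 without single libraries. Members that rose numbered 7 to 9 and other pathway genes 8 to 10 without single libraries, and 6 and 6 without HFD 4 and HFD 8. Depth limits Tdrd5, Tdrd9, Piwil1 and Mov10l1, with as few as 0 to 3 counts in a library.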
